A study of Mus musculus with 68 samples.

Results

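The tunicamycin response of mouse embryonic fibroblasts (MEFs) from 5 F1 crosses was taken as a single response, pooled over the crosses, and then compared from cross to cross. All 28 F1 libraries entered, 14 from cells exposed to tunicamycin (TM) and 14 controls, out of 68 libraries in the series, and every gene of their 5 tables was kept, 12803 in all. The mother was C57BL/6J in every cross and the father was 129S1Sv/ImJ (x129), CAST/EiJ (xCAST), NOD/ShiLtJ (xNOD), NZO/H1LtJ (xNZO) or WSB/EiJ (xWSB). Exposure to TM lasted 4 h at 2 ug/ml, and control cells had 0.1% DMSO alone. Each group held 3 libraries, except xCAST controls and xNOD TM, which held 2. Each cross was 1 pool of MEFs from several embryos of a litter, described in the study's methods as female, and replicates were wells of that pool treated in parallel. The p-values of the pooled fit therefore rest on the spread between wells together with differences in response between these 5 pools. Those of single crosses and of the interaction rest on the spread between wells. None measures the spread between litters of a cross. The other 40 libraries, from the founder strains, entered no test.

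TM blocks the first step of N-linked glycosylation, so unfolded glycoproteins build up in the endoplasmic reticulum (ER). Cells answer with the unfolded protein response. The sensor Atf6 is cleaved to a transcription factor, Ire1 splices Xbp1 mRNA and degrades other mRNAs at the ER, and Perk phosphorylates eIF2-alpha, which slows translation while favouring that of Atf4. Atf6 and Xbp1 are known for raising chaperones and the machinery of ER-associated degradation, Atf4 for raising Ddit3 (CHOP) and the enzymes that make and charge amino acids, and Perk and Ire1 have been tied to NF-kB.

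A library held between 6442976 and 29528457 reads on genes (median 13025117). Values are reads on a gene over a library size scaled by TMM, on the RPM scale and without division by gene length, so levels were compared between libraries and not between genes. The 14 fibroblast markers were all detected, with a summed level of 13119 to 23887 RPM in controls and 11881 to 26348 RPM with TM, and none was called in either direction. Among 14 myeloid markers, 8, with the defining gene Ptprc among them, were not listed. xNZO control replicate 3 stood apart. Its 10 listed neuron markers, a list chosen after the values were seen, summed to 716 RPM against 73.2 to 145 RPM in the other 27 libraries. In xNOD control replicate 3 the listed endothelial, epithelial and myeloid markers summed to 19.03, 26.5 and 26.8 RPM, against at most 5.28, 7.96 and 15.5 RPM in the other xNOD controls. The 4 Y-linked genes listed summed to between 14.1 and 116 RPM in x129, xNOD, xNZO and xWSB and to between 0.231 and 1.86 RPM in xCAST, although the pools are described as female. Change with TM also followed base composition. Across 12170 genes with a transcript model, Spearman's rho of the pooled change with GC content was -0.42 and with transcript length -0.17.

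TM raised about as many genes as it lowered, and more of the rises than of the falls reached 2 fold. Of 12318 genes tested, 621 (5.04%) were induced and 640 (5.2%) were lowered, together 10.2%, where a call required 1.5 fold or more and, in limma with cross as a block over 14 TM and 14 control libraries, an adjusted p under 0.01. At least 2 fold was reached by 154 induced and 82 lowered genes, and at least 4 fold by 25 induced genes and by 1 lowered gene. The median change was 0.77 among induced and -0.73 among lowered genes on the log2 scale, against -0.03 over all genes tested. Changes given below are log2 fold changes unless a fold is named, and in bulk RNA fewer cells of a type and less RNA per cell cannot be told apart. With the adjusted p alone, 2144 genes were higher and 2302 lower. Removing GC content and transcript length from each library by loess, a step added after the data were seen, left 442 induced genes, 379 of them among the 621, and 342 lowered genes, 283 of them among the 640. The part of GC content and length in the pooled calls was not tested further. By edgeR on recovered reads 686 genes were induced and 594 lowered. Every list described below as having 0 lowered members had 0 by edgeR too.

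**Figure D1:**
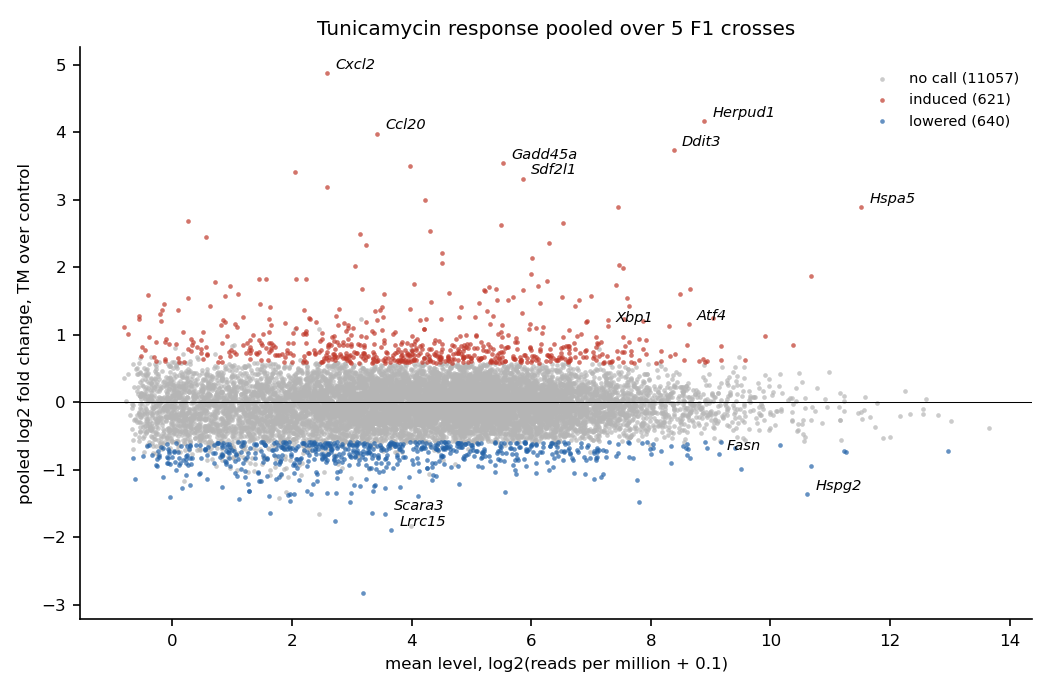
Each point is a gene, with its mean level over TM and control libraries on the x axis (log2 of RPM + 0.1) and its pooled log2 fold change on the y axis, red for the 621 induced, blue for the 640 lowered and grey for the other 11057 genes. Induced genes reach a log2 change of 4.88 (Cxcl2), while nearly all lowered genes lie above -2.

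The induced genes with the largest pooled change, among those whose TM libraries lay above every control library of their own cross in all 5 crosses, were Cxcl2, Herpud1, Ccl20, Ddit3, Gadd45a, Cxcl1, Derl3, Sdf2l1, Cass4 and Atf3. They hold ER degradation factors, stress transcription factors and chemokines. Herpud1, a membrane adaptor of ER-associated degradation, lay between 39.1 and 60.7 RPM (median 48.7) in controls and between 718 and 1004 RPM (median 928) with TM. The change was 18.0 fold, or 4.17 ± 0.06 (SE, 14 against 14 libraries) on the log2 scale (limma adjusted p = 1.30e-27). No TM library of Herpud1 overlapped any control of any cross. Ddit3 encodes CHOP, the transcription factor that links prolonged ER stress to cell death. Its level was 25.0 to 121 RPM (median 44.7) in controls and 391 to 820 RPM (median 616) with TM, a change of 13.3 fold (3.74 ± 0.10 on the log2 scale, limma adjusted p = 2.98e-21). The highest control of Ddit3 was an xWSB library, and it still lay below every TM library. Gadd45a, a growth arrest gene, rose from a median of 7.27 RPM to 76.8 RPM (3.54 ± 0.09 on the log2 scale). Sdf2l1, a partner of ER chaperones, rose from 10.5 RPM to 102 RPM (3.32 ± 0.07). Cass4, an adaptor of focal adhesions, was low, with medians of 1.05 RPM and 8.98 RPM (3.19 ± 0.12). Atf3, a stress-induced repressor of the ATF family, rose from 4.40 RPM to 32.7 RPM (3.00 ± 0.12). For these 6 genes the ranges of all controls and all TM libraries did not overlap, while for Ccl20 they overlapped across crosses (0 to 16.1 RPM and 5.86 to 40.5 RPM).

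**Figure D2:**
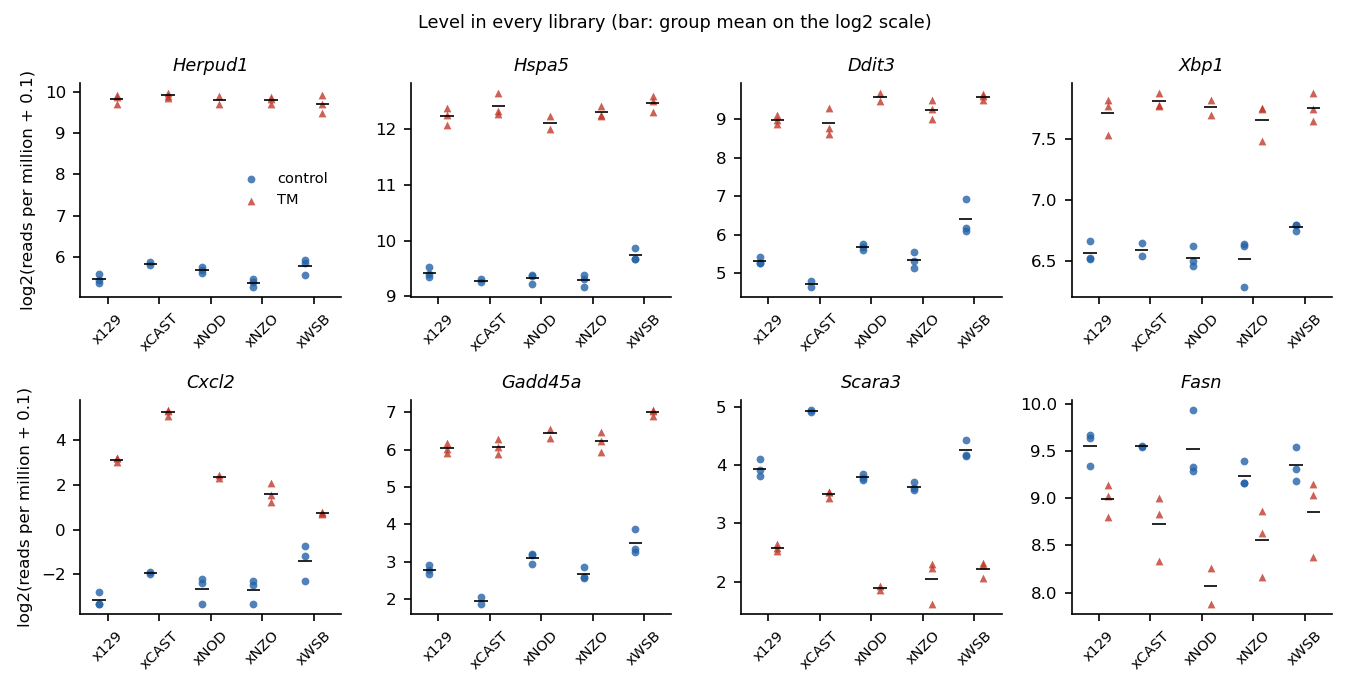
Level of 8 genes in each of the 28 libraries (log2 of RPM + 0.1, y axis) by cross (x axis), with blue circles for controls, red triangles for TM and a bar for the mean of each group. TM libraries lie above all controls of their cross for Herpud1, Hspa5, Ddit3, Xbp1, Cxcl2 and Gadd45a and below them for Scara3 and Fasn, and the rise of Cxcl2 is largest in xCAST and smallest in xWSB.

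Most of the ER chaperones and folding enzymes tested were induced. Of 26, 17 were induced and 0 lowered (5.04% and 5.2% of all genes tested), with a median change of 0.95 and a median between 0.84 and 1.08 in each cross. The largest changes were in Sdf2l1, Creld2 (2.90 ± 0.10), Hspa5 (2.90 ± 0.06) and Dnajb9 (2.64 ± 0.12). Hspa5 encodes BiP, the main Hsp70 of the ER. It lay between 577 and 934 RPM in controls and between 4097 and 6473 RPM with TM, so its groups did not overlap. Txndc5, a thioredoxin-like protein, was the one member with a value below 0 (-0.16). Of 21 genes of ER-associated degradation, 8 were induced and 0 lowered, with a median of 0.24. They were Herpud1, Derl3 (3.42 ± 0.33), Syvn1 (1.99), Sel1l (1.43), Edem1 (1.02), Selenos (0.81), Selenok (0.79) and Derl1 (0.66). Syvn1 and Sel1l form the core of a ubiquitin ligase in the ER membrane, and Derlins belong to its channel. The cytosolic extraction ATPase Vcp had a value of 0.13. Of 14 tested sensors and transcription factors, a list without Atf4, Ddit3 and Atf3, Xbp1 alone was induced. With GC content and length removed Eif2ak3 was induced too (0.63). Atf4, Ddit3 and Atf3, counted with the integrated stress response below, were induced as well. Xbp1 rose from a median of 98.6 RPM to 216 RPM (1.13 ± 0.05, limma adjusted p = 1.48e-16), and the lowest TM library (178 RPM) lay above the highest control (111 RPM). Gene-level reads do not separate spliced from unspliced Xbp1. Eif2ak3 (Perk) had a value of 0.54 ± 0.08, Atf6 of 0.21 ± 0.08 and Ern1 (Ire1) of 0.17 ± 0.12. In the translocon and COPII list 4 of 41 genes were induced and 0 lowered. These were Spcs3, Spcs2 and Sec11c, parts of the signal peptidase, and Srp19 of the signal recognition particle, with values of 0.63 to 0.82. Of the 4 only Spcs2 (0.60) kept its call with GC content and length removed. Among 36 genes that build or transfer N-glycans, the pathway TM blocks, 3 were induced and 0 lowered. They were Gnpnat1 (1.00), Alg12 (0.90) and Magt1 (0.71), while Dpagt1, the enzyme TM inhibits, had a value of -0.11.

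The promoters of the called genes were searched for known ER stress elements, as a description with no test. RefSeq promoters (GRCm38.p6) matched 494 of the 621 induced genes, 471 of the 640 lowered genes and 9620 of all genes tested, and the 250 bases before each start were searched on both strands. ERSE, which is CCAAT and CCACG with any 9 bases between them, was in 11 induced (2.23%), 0 lowered and 15 of all tested (0.156%), and in 0.130% of 27025 promoters in the table. The 11 were Derl3, Creld2, Hspa5, Syvn1, Hsp90b1, Dnajc3, Zfp57, Pdia6, Alg12, Calr and Canx. ERSE-II, ATTGG and CCACG with any 1 base between them, was in 4 induced (0.810%), Herpud1, Lrif1, Rbm39 and Rcl1, in 0 lowered and in 6 of all tested (0.0624%), against 0.0370% of the table. No tested gene held both. The letters TGATGCAA, a CHOP and ATF4 composite site (CARE), were in 14 induced (2.83%), in 1 lowered and in 63 of all tested (0.655%), against 0.918% of the table, and the 14 hold Herpud1, Atf3, Fgf21, Chac1 and Slc7a11. UPRE, TGACGTGG, was in 5 induced (1.01%), in 5 lowered (1.06%) and in 87 of all tested (0.904%), against 0.603% of the table. The strongly induced Ddit3 and Sdf2l1, and Xbp1, held none of the 4 strings in this window. A match is a string of letters, not a bound site. The 220 bases before the start are shown for 6 strongly induced genes whose promoters hold a match, 5′ to 3′ in the direction of the gene, with matches in capitals.
Hspa5, chr2:34771870-34772089, plus strand: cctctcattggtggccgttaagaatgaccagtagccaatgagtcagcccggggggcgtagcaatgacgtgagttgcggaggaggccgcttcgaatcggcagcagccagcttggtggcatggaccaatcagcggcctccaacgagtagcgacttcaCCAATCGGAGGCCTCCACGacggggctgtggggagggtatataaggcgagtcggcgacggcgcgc
Syvn1, chr19:6046356-6046575, plus strand: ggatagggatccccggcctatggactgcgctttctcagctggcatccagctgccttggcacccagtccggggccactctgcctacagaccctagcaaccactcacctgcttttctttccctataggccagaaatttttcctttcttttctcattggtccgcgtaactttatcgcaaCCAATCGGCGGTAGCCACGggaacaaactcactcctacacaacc
Creld2, chr15:88819426-88819645, plus strand: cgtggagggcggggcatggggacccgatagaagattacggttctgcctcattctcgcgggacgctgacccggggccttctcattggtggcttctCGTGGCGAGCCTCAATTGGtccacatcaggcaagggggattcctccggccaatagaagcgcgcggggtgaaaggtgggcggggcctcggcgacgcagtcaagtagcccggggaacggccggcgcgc
Derl3, chr10:75893178-75893397, plus strand: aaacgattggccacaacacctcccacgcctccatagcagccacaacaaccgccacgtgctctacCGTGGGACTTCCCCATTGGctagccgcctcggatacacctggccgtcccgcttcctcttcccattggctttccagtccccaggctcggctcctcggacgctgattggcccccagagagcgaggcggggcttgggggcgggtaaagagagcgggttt
Hsp90b1, chr10:86705445-86705664, minus strand: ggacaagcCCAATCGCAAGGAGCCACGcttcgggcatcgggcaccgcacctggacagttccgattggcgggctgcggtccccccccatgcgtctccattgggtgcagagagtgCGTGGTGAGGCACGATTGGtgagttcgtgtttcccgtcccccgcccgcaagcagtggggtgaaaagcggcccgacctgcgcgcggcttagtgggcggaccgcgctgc
Herpud1, chr8:94386209-94386428, plus strand: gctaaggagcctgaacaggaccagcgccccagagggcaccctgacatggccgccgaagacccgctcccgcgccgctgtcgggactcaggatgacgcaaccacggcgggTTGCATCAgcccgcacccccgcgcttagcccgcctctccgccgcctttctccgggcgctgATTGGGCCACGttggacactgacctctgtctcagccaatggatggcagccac
In Hspa5 and Syvn1 the ERSE reads forward and ends close to the start, in Creld2 and Derl3 it reads on the opposite strand, and Hsp90b1 has one in each direction. Herpud1 has an ERSE-II near its start and a CARE, on the opposite strand, farther up. The changes of these 6 genes were 4.17 (Herpud1), 3.42 (Derl3), 2.90 (Hspa5), 2.90 (Creld2), 1.99 (Syvn1) and 1.87 (Hsp90b1) on the log2 scale.

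Most tested genes of the integrated stress response, run by Atf4 and CHOP, were induced. Of 21, 17 were induced and 0 lowered (5.04% and 5.2% of all genes tested). Their median was 1.16, and 1.00 to 1.26 in each cross. Behind Ddit3, Gadd45a and Atf3 came Fgf21, a stress hormone, whose median was 0.168 RPM in controls and 1.59 RPM with TM (2.69 ± 0.20). Fgf21 controls thus rest on a few reads each. Atf4 itself rose from a median of 243 RPM to 545 RPM (1.16 ± 0.05, limma adjusted p = 7.54e-16), and its groups did not overlap in any cross. The 4 members without a call were Ddit4 (0.48), Atf5 (0.16), Eif4ebp1 (0.13) and Tnfrsf10b (-0.15). Enzymes of amino acid synthesis and one-carbon metabolism followed, with 8 of 15 induced, 0 lowered and a median of 0.60. The largest values were those of Cth (1.08 ± 0.08), which makes cysteine, Psph (0.95 ± 0.06), which makes serine, Gpt2 (0.83) and Mthfd2 (0.78). Of 13 amino acid transporters 5 were induced, among them both chains of the cystine carrier, Slc7a11 (1.23 ± 0.11) and Slc3a2 (1.14 ± 0.05), and 1, the lysosomal proton-coupled transporter Slc36a1, was lowered (-0.70 ± 0.16). Without xNZO control replicate 3 and xNOD TM replicate 1, or with GC content and length removed, 0 transporters were lowered. Of 20 cytosolic aminoacyl-tRNA synthetases, which charge tRNAs, 10 were induced and 0 lowered, with a median of 0.52. Cars (0.90 ± 0.06), Tars (0.76), Yars (0.72) and Lars (0.68) led, and Qars (-0.06), Mars (-0.04) and Kars (-0.03) had values near 0. With GC content and length removed 7 of the 20 were induced.

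Chemokines and NF-kB genes were induced in part. Among all genes tested 5.04% were induced and 5.2% lowered. Of 15 chemokines and cytokines tested, 10 were induced and 1, Cx3cl1 (-0.82 ± 0.16), was lowered, with a median of 1.33. The median ran from 0.23 in xWSB to 2.03 in xCAST. With GC content and length removed 8 of the 15 were induced and 1 was lowered. Cxcl2 and Cxcl1, which attract neutrophils, and Ccl20, which attracts lymphocytes and dendritic cells, had 3 of the 6 largest rises of the ranking above. Cxcl2 was nearly silent in controls, at 0 to 0.502 RPM, and reached 1.50 to 40.5 RPM with TM. Its change of 4.88 ± 0.37 therefore depends on the pseudocount, and was 2.65 with a pseudocount of 1. Lif, a cytokine of the IL-6 family, rose from a median of 46.9 RPM to 243 RPM (2.04 ± 0.07) with no overlap in any cross. Of 17 NF-kB subunits and feedback genes, 12 were induced and 0 lowered, with a median of 0.73. Tnfaip3 (A20, 1.91 ± 0.13) and Nfkbia (1.52 ± 0.08) restrain NF-kB, Relb (1.36 ± 0.07) is a subunit and Traf1 (1.18) an adaptor. The subunit Rela had a value of 0.14 ± 0.06. Defining immune cell markers stayed low. The 4 tested myeloid markers had values of -0.59 to -0.49, and the summed level of the listed ones was 6.74 to 26.8 RPM in controls and 4.36 to 14.8 RPM with TM.

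**Figure D3:**
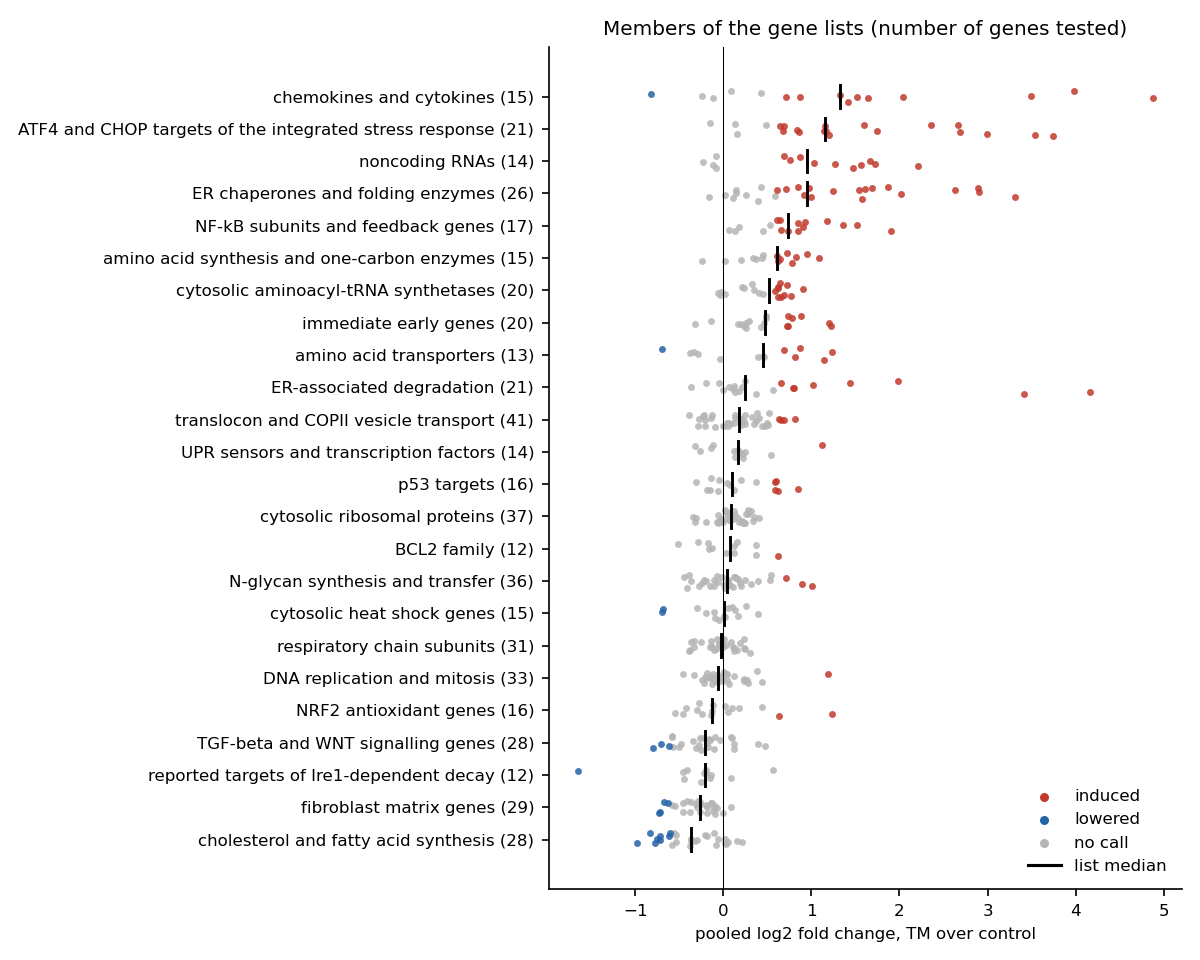
Pooled log2 fold change (x axis) of each tested member of 24 gene lists (y axis, number tested in parentheses), red where induced, blue where lowered and grey where not called, with a black bar at the median. Medians run from 1.33 for chemokines and cytokines to -0.37 for cholesterol and fatty acid synthesis.

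The transcripts of lowered genes had a median GC content of 55.3% and a median length of 4448 bases, against 45.5% and 3043 bases for induced genes and 49.6% and 3465 bases for genes without a call. Among genes whose TM libraries lay below every control library of their own cross in all 5 crosses, the largest falls included those of Lrrc15, Scara3, Mgat3, Pkd1, Retreg3, Cdk5r1, Cdc42ep2, Hspg2 and Apc2. Scara3, a scavenger receptor reported as a target of Ire1-dependent decay, fell in every cross. It lay between 11.8 and 30.7 RPM (median 14.6) in controls and between 2.97 and 11.6 RPM (median 4.85) with TM, a fall of 1.65 ± 0.08 on the log2 scale (limma adjusted p = 1.81e-15), and of 1.35 to 2.03 in each cross. The other 11 reported decay targets tested were not called and ranged from -0.46 to 0.57, the highest being Erp44, which edgeR called induced. Lrrc15, a membrane protein of mesenchymal cells, fell by 1.89 ± 0.21 on the log2 scale, from a median of 18.7 RPM to 2.63 RPM. Its controls ran from 2.13 RPM in an xWSB library to 39.4 RPM in an xNZO library, so the groups overlapped across crosses but not within one. Mgat3, which adds bisecting N-acetylglucosamine to N-glycans, fell by 1.48 ± 0.13 and Retreg3, a reticulon-like receptor of ER-phagy, by 1.39 ± 0.11 on the log2 scale. Cdc42ep2, an effector of Cdc42, fell by 1.36 ± 0.11.

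Of these genes, Mgat3, Cdk5r1 and Apc2 were highest, of all controls, in xNZO control replicate 3, the library with raised neuron markers. Cdk5r1 had 25.1 RPM there and at most 4.87 RPM in any other control, and Apc2 25.3 RPM and at most 6.96 RPM. Without that library and xNOD TM replicate 1 Cdk5r1, the activator of Cdk5, had -1.01 in place of -1.38, and Apc2, a relative of the Wnt regulator Apc, -1.15 in place of -1.35. Pkd1 (polycystin 1) and Hspg2 (perlecan) have transcripts of 14164 and 14187 bases with a GC content of 56.8% and 60.9%. Pkd1 fell by 1.47 ± 0.17 and Hspg2 by 1.36 ± 0.17 on the log2 scale, both most in xNOD (-2.47 and -2.30), and with GC content and length removed the values were -0.98 and -0.83.

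Lipid genes were the list with most lowered members. Of 28 genes of cholesterol and fatty acid synthesis, 8 were lowered and 0 induced, with a median of -0.37 and of -0.41 to -0.29 in each cross. Dhcr7, the last enzyme of cholesterol synthesis, fell by 0.98 ± 0.08 on the log2 scale. The fatty acid synthase Fasn fell by 0.77 ± 0.11 and the desaturase Scd1 by 0.76 ± 0.18. For these 3 genes, TM libraries lay below the controls of their cross in every cross. With GC content and length removed 5 of the 28 were lowered, and Fasn (-0.35) lost its call. Of 29 fibroblast matrix genes, 4 were lowered and 0 induced, with a median of -0.27, and the median reached -0.67 in xNOD. They were the proteoglycan Bgn (-0.73 ± 0.08), fibronectin Fn1 (-0.72 ± 0.12), collagen Col6a3 (-0.68 ± 0.13) and the protease inhibitor Timp3 (-0.63 ± 0.09). The fibrillar collagens Col1a1 (-0.18), Col1a2 (-0.11) and Col3a1 (-0.19) were not called. With GC content and length removed 2 of the 29 were lowered. In the TGF-beta and WNT list 3 of 28 were lowered and 0 induced, the WNT receptor Fzd2 (-0.80 ± 0.07), Smad6 (-0.70 ± 0.15) and Id2 (-0.61 ± 0.15). These shares stand against 5.2% lowered among all genes tested.

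The direction of the pooled response was shared by the 5 crosses. Of the induced genes 607 of 621 (97.7%) had a value above 0 in all 5 crosses, against 21.3% of all genes tested. Of the lowered genes 621 of 640 (97.0%) had a value below 0 in all 5, against 25.1% of all genes tested. TM libraries lay above every control library of their cross in all 5 crosses for 362 induced genes and below them for 228 lowered genes, against 4.71% and 3.43% of all genes tested. For 187 of the induced genes (30.1%) all 14 TM libraries lay above all 14 controls, crosses mixed. For 52 of the lowered genes (8.125%) they lay below them. Over all genes tested, called or not, these shares were 1.88% and 0.528%. Since the pooled calls used these same libraries, each cross was also left out in turn. Genes induced in the other 4 crosses had a value above 0 in the cross left out in 99.7% (x129), 99.6% (xCAST), 94.5% (xNOD), 98.4% (xNZO) and 97.7% (xWSB), against 45.7% to 50.1% of all genes tested. Genes lowered in the other 4 had a value below 0 in 95.9%, 99.8%, 99.1%, 99.2% and 95.2%, against 49.9% to 54.3%. A change of at least 1.5 fold in the cross left out was less frequent. It was reached by 58.7% (xWSB) to 88.8% (xCAST) of the induced genes and by 29.8% (x129) to 83.7% (xCAST) of the lowered genes, against 5.22% (xNZO) to 9.54% (xNOD) of all genes tested upward and 3.93% (x129) to 19.01% (xNOD) downward. Between pairs of crosses, which share no library, Pearson's r of the changes over 12318 genes ran from 0.521 (x129 and xNOD) to 0.764 (x129 and xCAST) in the 10 pairs. Genes are not independent replicates, and in every cross the change ran against GC content, with a Spearman's rho of -0.09 (xWSB) to -0.56 (x129). In the founder strains, normalized separately, 620 of 620 induced and 640 of 640 lowered genes that were listed there had the same sign. A change of at least 1.5 fold in that direction was less frequent there, at 87.6% of the induced and 67.3% of the lowered genes. Over all 12294 genes in both sets, called or not, Pearson's r of the changes was 0.92.

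**Figure D4:**
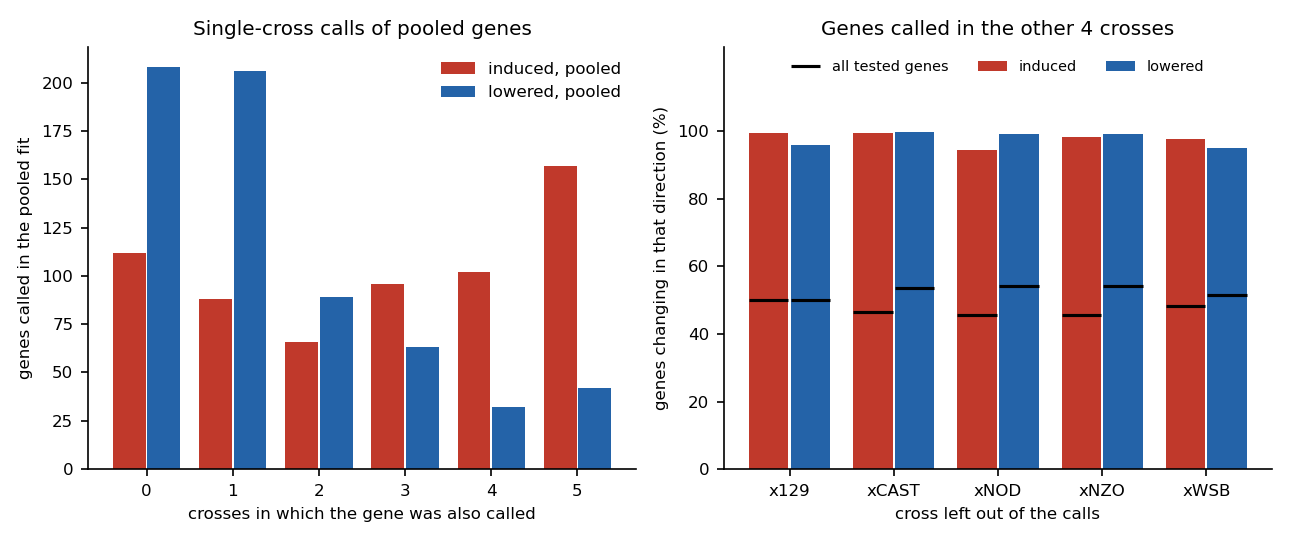
Left, number of pooled induced (red) and lowered (blue) genes (y axis) by the number of crosses in which the gene was also called (x axis). Right, percent of the genes called in the other 4 crosses that changed in the same direction in the cross left out (x axis), with a black bar for all genes tested. The induced genes peak at 5 crosses (157) and the lowered genes at 0 (208), while the same-direction shares lie between 94.5% and 99.8%.

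Calls within a cross agreed less than directions, most of all for lowered genes. Of the pooled induced genes 157 (1.27% of all tested) were called in all 5 crosses and 112 in none, and of the pooled lowered genes 42 (0.341%) in all 5 and 208 in none. No gene was called up in 1 cross and down in another. Single crosses had 409 (x129, 3.32%), 501 (xCAST, 4.07%), 551 (xNOD, 4.47%), 337 (xNZO, 2.74%) and 389 (xWSB, 3.16%) induced genes, and 98 (0.796%), 286 (2.32%), 932 (7.57%), 156 (1.27%) and 202 (1.64%) lowered genes. The median residual SD of a gene ranged from 0.157 (x129) to 0.310 (xWSB) on the log2 scale. The fit used 1 spread per gene for all groups, so SEs and calls in xWSB do not reflect its larger spread. Counts of a cross also depend on libraries of the others. Without xWSB TM replicate 1, xNOD had 1166 lowered genes. In xNOD the change also ran against transcript length (rho -0.46). The lowered counts moved with single libraries. In x129 the count was 45, 54 and 63 without control replicates 1, 2 and 3, and 46 and 59 without TM replicates 1 and 3. In xCAST it was 52 and 84 without control replicates 2 and 3 and 190 without TM replicate 2. In xNOD it was 531 without control replicate 3, the library with raised endothelial, epithelial and myeloid markers, whose part in the count was not tested, and 191 without TM replicate 1. In xNZO it was 98 without control replicate 3 and 101 and 52 without TM replicates 1 and 2. In xWSB it was 321 and 95 without control replicates 1 and 2 and 490, 127 and 124 without TM replicates 1, 2 and 3. The genes lowered in all 5 crosses numbered 21, 25, 26 and 27 without xCAST control replicate 2, xNZO TM replicate 2, x129 control replicate 1 and x129 TM replicate 1. Induced counts moved as far in xCAST, with 236 and 288 without control replicates 2 and 3, and in xNOD, with 360 without control replicate 3 and 248 without TM replicate 1. The pooled counts moved less, with 587 to 649 induced and 555 to 713 lowered genes when any library was left out.

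The size of the response differed between crosses for 7 genes (0.0568% of those tested), by a moderated F test of the cross by treatment interaction with an adjusted p below 0.01 in limma. All 7 were induced in the pooled fit, and 4 of them are chemokines, Ccl20, Cxcl1, Cxcl2 and Cxcl5. The others were Derl3, Tnfaip3 and Slfn2, a Schlafen gene known from T cell quiescence. The change was largest in xCAST for 6 of the 7 and smallest in xWSB for 5. The F test used the spread shared by all groups, although the median residual SD was largest in xWSB (0.310). Each cross was 1 pool, and Y-linked genes summed to at most 1.86 RPM in xCAST and to at least 14.1 RPM in the others. Cross, pool and Y-linked level therefore cannot be told apart. Ccl20 changed by 6.67 ± 0.35 in xCAST and by 1.10 ± 0.31 in xWSB, with values between 3.98 and 4.55 in the other crosses. Its control level was 9.77 to 16.1 RPM in xWSB, where TM libraries had 21.2 to 28.8 RPM, and at most 0.0579 RPM in xCAST, where they had 8.81 to 15.5 RPM. Those xCAST controls held at most 1 read each, below the floor of 3 reads, so the size of the xCAST change is set by the pseudocount. With a pseudocount of 1 it was 3.74 in xCAST, 1.04 in xWSB and 2.72 to 3.47 in the other crosses. For Ccl20 the cross with the smallest change had the highest controls. Cxcl1 had controls of 6.81 to 9.96 RPM in xWSB and at most 2.09 RPM elsewhere, and changed by 1.58 ± 0.28 in xWSB and by 5.90 ± 0.31 in xCAST. Cxcl2 changed by 2.14 ± 0.36 in xWSB and by 7.18 ± 0.40 in xCAST, where TM libraries held 34.1 to 40.5 RPM and x129, the next highest, held 8.64 ± 0.617 RPM (SD, n = 3). No control library of Cxcl2 held more than 5 reads, and with a pseudocount of 1 the changes were 0.97 in xWSB and 5.07 in xCAST. Over the 7 genes, xCAST had the largest change for 6 and xWSB the smallest for 5 with that pseudocount too. Cxcl5 changed by 0.26 ± 0.22 in xWSB and by 2.66 ± 0.25 in xCAST. In xWSB its TM libraries (12.5 to 31.6 RPM) overlapped the controls (12.2 to 18.0 RPM). The highest controls of Cxcl5 were not in xWSB: a control held up to 612 reads in xCAST and up to 178 in xWSB.

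Derl3 was the one ER gene of the 7. It reached 4.98 to 14.5 RPM with TM in x129, xCAST and xNZO, with changes of 4.31 to 4.50, and 4.86 to 8.86 RPM in xNOD (3.39 ± 0.35). In xWSB it reached 1.28 to 2.14 RPM from controls of 0.726 to 1.25 RPM, a change of 0.59 ± 0.31. No control library of Derl3 held more than 20 reads, so these sizes depend on the pseudocount. With a pseudocount of 1 the change was 0.35 in xWSB and 2.31 (xNOD) to 3.23 (xNZO) in the other crosses. Tnfaip3 changed by 3.12 ± 0.15 in xCAST and by 1.20 to 1.90 in the others, with TM libraries at 155 to 187 RPM in xCAST and at no more than 126 RPM elsewhere. Slfn2 changed by 3.42 ± 0.26 in xCAST, from 0.603 and 0.868 RPM to between 7.99 and 9.43 RPM, and by 0.15 to 0.92 in the others. When each of the 28 libraries was left out in turn, the interaction call of Cxcl5 was lost in 21 cases, with a limma adjusted p of up to 0.0406 (without xWSB TM replicate 2), that of Tnfaip3 in 1 (0.0104, without xCAST control replicate 2) and those of the other 5 genes in 0. With a replicate block 1 of the 7, Ccl20, passed, and whether the numbers mark a pairing could not be decided. Without xNOD TM replicate 2, 11 genes passed, and without the whole xCAST cross, 2. The other 614 induced genes did not pass, which does not show that their changes were equal. For Herpud1, Hspa5 and Ddit3 the interaction adjusted p in limma was 0.770, 0.778 and 0.770.

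**Figure D5:**
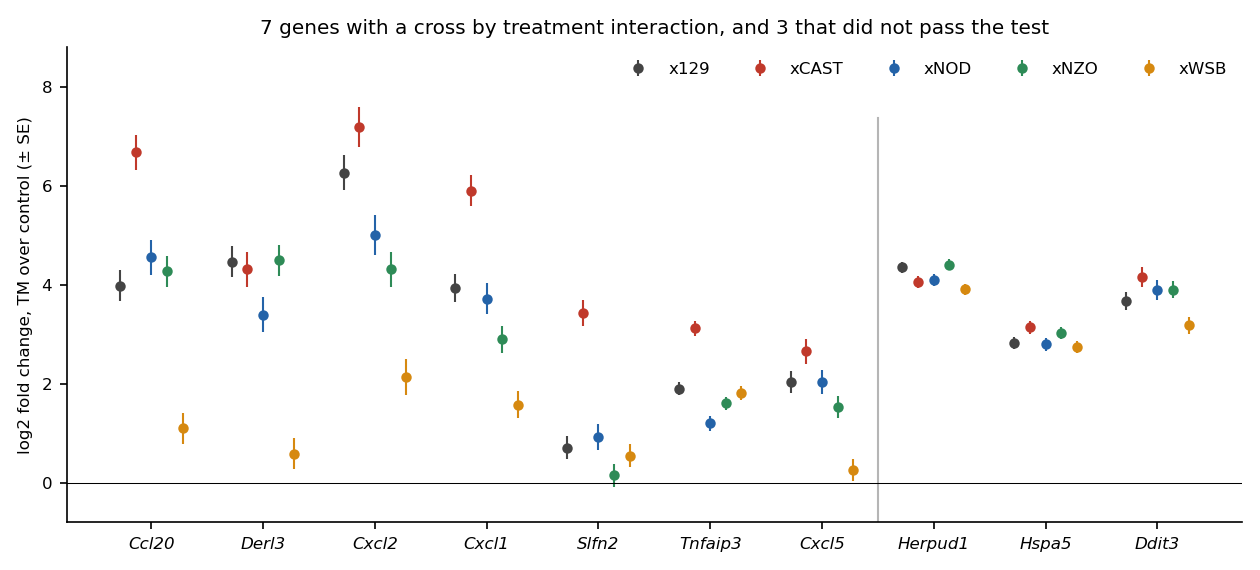
Log2 fold change with TM in each cross (y axis, points with SE from the joint limma fit) for the 7 genes with an interaction and, right of the grey line, for Herpud1, Hspa5 and Ddit3. xCAST (red) is highest for 6 of the 7 and xWSB (orange) lowest for 5, while the 5 crosses lie close together for Herpud1 and Hspa5.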

How the data were processed

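Whole-cell mRNA of primary MEFs was sequenced as single-end reads in 28 F1 libraries, grouped by the sample labels. TopHat 1.4.1 (GRCm38, per the labels) was run by the authors against a genome for each strain. They applied TMM scaling from edgeR, discarded any library found away from its own condition in principal components, and repeated the scaling. Discarded libraries are not analysed here, and replicate error is therefore that of a selected set. The deposited signal, named FPKM in the tables, steps by the worth of 1 read in each library, whatever the gene (100% of values whole within 0.01), so it is reads over the scaled library size (RPM) without gene length, and the tests planned for FPKM were used on the same log scale. Whole reads were recovered from the steps for an alternative test in edgeR 4.0.16, which called 686 induced and 594 lowered genes. The level of 3 reads, the floor used here, lay between 0.0797 and 0.376 RPM, and low values carry counting error. Lines for unassigned reads, 3 in number, were dropped. They held 15.5% to 24.1% of the reads of a library.

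Genes were named from GENCODE M21 (12639) and the study's own gene identifiers (23), and 141 had no name. Values were read in Python 3.11.15 (pandas 2.3.3, numpy 2.4.6, matplotlib 3.10.9). Genes with at least 0.5 in at least 14 of 28 libraries, 12318, were tested on log2(value + 0.1) with limma 3.58.1 (R 4.3.3, eBayes with trend), with cross as a block, and a call needed a Benjamini-Hochberg adjusted p below 0.01 and 1.5 fold. The added 0.1 makes changes of low genes smaller. Single crosses and the interaction came from a fit over the 10 groups of cross and treatment. Genes were named by rule: the 10 largest changes in each direction whose TM libraries lay beyond all controls of their cross in every cross, the 6 smallest interaction p-values, up to 4 members a list with exceptions, and genes the study discusses. A few genes that met the rule are not reported here. The members, gene lists, motifs and tests were chosen with earlier results of these data known. On simulated data the pooled fit recovered 22 of 50 genes changed 1.5 fold and 49 of 50 changed 2 fold. As a call needs an estimated change of 1.5 fold, genes changed by just that amount can miss it through the cut-off alone. Whether replicate numbers pair the samples could not be decided: same-numbered TM and control deviations correlated between -0.363 and 0.340 over 13 pairs. The main fit used no pairing. The alternatives were another pseudocount, other filters, median-of-ratios scaling, a replicate block, no trend, edgeR and each library or cross left out. Added later were GC content and length removed, and xNZO control replicate 3 and xNOD TM replicate 1 left out together.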

Additional observations from a re-analysis of the deposited data

Results flagged for a closer look

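The 7 genes of the interaction were picked out because a test of the difference between crosses passed. The adjusted p-values of the cross by treatment interaction in limma were 1.53e-05 for Ccl20, 6.22e-05 for Derl3, 6.22e-05 for Cxcl1, 6.22e-05 for Cxcl2, 7.69e-05 for Slfn2, 0.000174 for Tnfaip3 and 0.00669 for Cxcl5. With edgeR on recovered reads 6 of the 7 had an adjusted p below 0.01, and Cxcl5 had 0.0161. With a pseudocount of 1 all 7 passed, and with a replicate block 1 did, Ccl20. The Cxcl5 call was lost in 21 of 28 cases when 1 library was left out. Groups held 2 or 3 libraries, too few for the gap test of an outlying sample, which was not run.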

How the results depend on the processing

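The pooled induced count stayed within 1.5 times of 621 under all 42 alternatives, from 442 with GC content and length removed to 686 with edgeR. The pooled lowered count of 640 moved under 2, to 406 with a pseudocount of 1 and to 342 with GC content and length removed. With a pseudocount of 1 the share of calls that were induced rose from 49.2% to 54.6%, with GC content and length removed to 56.4%.

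Same-numbered TM and control deviations correlated above 0.1 in 5 of 13 pairs and below 0 in 6. The xWSB pairs were all positive (0.13 to 0.29). Deviations from means of 2 or 3 libraries cannot decide whether the numbers mark a pairing. With a replicate block the pooled counts were 604 and 616, the interaction was left with 1 gene, Ccl20, and the lowered genes of all 5 crosses with 24. With that block the induced counts were 309 (xCAST) and 248 (xNOD), and the lowered counts 51 (x129), 155 (xCAST), 465 (xNOD) and 84 (xNZO). With GC content and length removed the interaction had 23 genes, lowered counts were 60 (x129), 180 (xCAST), 407 (xNOD) and 87 (xNZO), and 27 genes were lowered in all 5 crosses. With edgeR the xNZO lowered count was 302. Without xNZO control replicate 3 and xNOD TM replicate 1, chosen after the data were seen, the pooled counts were 656 and 540, and xNOD had 261 induced and 227 lowered genes and xNZO 98 lowered. Without the xCAST cross the interaction had 2 genes. The causes of these moves were not tested, beyond the libraries left out.

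Leaving out 1 library at a time gave 587 to 649 pooled induced and 555 to 713 pooled lowered genes, 5 to 11 interaction genes, 129 to 162 genes induced and 21 to 48 lowered in all 5 crosses. Single-cross induced counts ranged over 281 to 482 (x129), 236 to 566 (xCAST), 248 to 670 (xNOD), 244 to 375 (xNZO) and 280 to 531 (xWSB), and lowered counts over 45 to 116 (119 in x129 without the pair of libraries above), 52 to 346, 191 to 1166, 52 to 221 and 95 to 490. Where this left a group with 1 library, that library was assumed to vary like the others.

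Same-direction shares in the cross left out rose with a pseudocount of 1 to 100% (x129), 100% (xCAST) and 99.4% (xWSB) for induced and to 98.3% (x129), 100% (xCAST), 99.8% (xNZO) and 98.1% (xWSB) for lowered genes. With a mean of at least 2 they were 99.5% (xNZO) for induced and 100% (xCAST), 99.8% (xNZO) and 97.5% (xWSB) for lowered genes. Of 136 named genes, 0 of the 96 with a call changed direction with a pseudocount of 1, median-of-ratios scaling, the replicate block or edgeR, while 2 without a call, Cdh5 (0.05) and Kdr (-0.03), took the other sign under at least 1 of these. The calls of Csf1r, Hspa1a, Id2 and Smad6 were lost with a pseudocount of 1, those of Btg2 and Csf1r under the replicate block and that of Id2 with edgeR.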

Other observations

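Other lists moved little or in part. Of 14 noncoding RNAs tested, 10 were induced and 0 lowered, with a median of 0.95 (5.04% of all genes tested were induced). With GC content and length removed 7 of the 14 were induced. The largest values were those of 5430416N02Rik (2.22), Snhg5 (1.73), Snhg12 (1.67) and Snhg1 (1.57), and host genes of small nucleolar RNAs made up most of the 10. The nuclear RNAs Malat1 (-0.09) and Meg3 (-0.23) and the imprinted H19 (-0.09) were not called. Of 20 immediate early genes 7 were induced, led by Egr1 (1.22) and Myc (1.20), while Fos (0.43) and Jun (0.30) were not called. Of 16 p53 targets 5 were induced, led by Plk2 (0.85) and Pmaip1 (0.63), and Cdkn1a, the p21 gene, had a value of -0.15. With GC content and length removed 2 of the 16 were induced. In the BCL2 family Pmaip1 (NOXA) alone was induced among 12 tested, a call lost with GC content and length removed (0.37).

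Of 33 genes of DNA replication and mitosis 1 was induced, Cdc6 (1.19), which loads replicative helicase, and 0 were lowered. This count and those below stand against 5.04% induced and 5.2% lowered among all genes tested. Of 37 cytosolic ribosomal proteins and 31 respiratory chain subunits 0 were called in either direction in limma, with medians of 0.09 and -0.03. edgeR called 0 of them too, 14 and 11 had an unadjusted p below 0.05 in limma, and 4 and 5 an adjusted p below 0.01 with a change under 1.5 fold. Among the respiratory chain subunits 2, Ndufa4 (-0.67) and Cox7b (-0.66), were lowered with GC content and length removed. Of 16 NRF2 genes 2 were induced, Slc7a11 and Sqstm1. Of 15 cytosolic heat shock genes 2 were lowered, Hspa1a (-0.69) and Hspa1b (-0.69), near-identical copies whose reads cannot be told apart. Both calls were lost with GC content and length removed (-0.54 and -0.56), and the cytosolic chaperone Hspa8 had a value of 0.01. Of the endothelial and epithelial markers tested 0 were called, and of the myeloid markers 1 was lowered, Csf1r (-0.59), whose call was lost with a pseudocount of 1.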
